A study of Danio rerio with 14 samples.

Results

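The genes described here encode the proteins of the cytosolic ribosome and were measured by bulk RNA-seq in the distal tip of zebrafish (Danio rerio) fin rays before and during regrowth. They were chosen by symbol: an rpl, rps or rplp name followed by a digit, with at least 1 TPM, a transcript level that is corrected for length, in at least 2 of 14 libraries. Of 14836 genes in the table, 88 had such a symbol. The 7 rps6k symbols, which name kinases, were left out, and the 81 others all reached the minimum, so no gene was lost to it. They comprised 43 genes of the large (60S) subunit, 4 genes of its acidic stalk (rplp0, rplp1, rplp2 and rplp2l) and 34 genes of the small (40S) subunit. Some ribosomal proteins, rpl10, rpl37a, rpl41 and fau among them, are not analysed here.

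The fish were wild type and untreated, and each library came from a pool of 10 animals, from which about 250 µm of the end of each ray was taken. There were 3 pools at 0, 3, 7 and 10 days post amputation (dpa) and 2 at 14 dpa. The 0 dpa pools were the reference. The labels call the first regrowth time 3 dpa and the design text gives 3.5 days; it is called 3 dpa below. Each pool counts as 1 replicate, so p-values measure the spread between pools.

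A ribosome is built from 1 copy of most ribosomal proteins per particle, with the stalk proteins as the exception, on a scaffold of ribosomal RNA. In vertebrates the mRNAs of these proteins carry a terminal oligopyrimidine (TOP) tract at their 5′ end, through which the kinase mTOR controls how strongly they are translated, so that protein output can change while the mRNA level does not. Growing tissue needs new ribosomes, and a regenerating fin is a tissue that grows quickly. A few ribosomal proteins have a paralog, a second gene for a closely related protein, and some such paralogs are expressed at low level or in certain tissues.

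The deposited TPM values sum to 1000000 in every library, so read depth is unknown and a level is always a share of the measured transcripts. Of the 14836 genes, 11272 passed the filter and were tested with limma on log2(TPM + 1), with adjustment over all of them. Log2 changes are therefore changes of log2(TPM + 1), which understates those of low genes. Libraries of a time correlated across genes at 0.953 to 0.991. Apart from the others stood 4 libraries in which the immediate early gene fosb was at 886 to 1702 TPM, against 23.0 to 144 TPM in the other 10: replicate 1 of 0 dpa, replicate 2 of 7 dpa, and replicates 2 and 3 of 10 dpa. Cell makeup also moved with time. The summed level of 8 fibroblast markers was 313 to 518 TPM at 0 dpa and 20493 to 22890 TPM at 3 dpa, with 8 of 8 higher, while 6 of 7 superficial epidermis markers were lower, from 13379 to 16285 TPM down to 5522 to 7387 TPM. Basal epidermis markers summed to 59089 to 93429 TPM at 0 dpa, 31308 to 38326 TPM at 3 dpa and 48504 to 73714 TPM at 7 dpa. Of the 6 tested, 4 were lower at 3 dpa and 1 at 7 dpa, and 0 were higher. In bulk tissue, fewer cells of a type and less RNA per cell cannot be told apart, and the part of cell makeup in the results below was not tested.

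Ribosomal protein transcripts were among the most abundant of the fin tip. On the TPM scale the highest mean over the 14 libraries belonged to rps2, at the mRNA entry of the small subunit, with 3624 TPM, which was rank 23 among all genes. Next came rplp0, the base of the stalk, with 2758 TPM, and rpl3, which lies close to the peptidyl transferase centre, with 2434 TPM. They were followed by rpl7a with 2379 TPM and rpl4, which lines part of the exit tunnel, with 2300 TPM. The median member was at 732 TPM and the quartiles at 463 and 994 TPM. Of the 81 genes, 17 were among the 100 most abundant genes of the table and 71 among the 500 most abundant.

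The low end was held mainly by paralogs. The 4 genes under 100 TPM were rps8b with 1.87 TPM, rps27l with 19.4 TPM, rpl7l1 with 55.2 TPM and rpl27a with 67.8 TPM, and the next was rpl22l1 with 155 TPM. Of these, rpl27a is the only one without a partner in the table under the naming used here. Salmon divides reads among similar sequences by estimation, so levels within paralog pairs are uncertain.

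Together the 81 genes made up about 7% of all TPM. The sum was 7.78%, 6.97% and 7.06% in the 0 dpa libraries and 7.27%, 6.95% and 8.08% in the 3 dpa libraries. It was 6.18%, 6.33% and 6.35% at 7 dpa, 6.27%, 6.96% and 6.79% at 10 dpa, and 6.89% and 7.36% at 14 dpa. As deposited, the 0 and 3 dpa libraries overlapped, every 7 dpa library lay below every library at 0, 3 and 14 dpa, and the 10 dpa libraries overlapped with 7 dpa. As means ± SD these were 7.27% ± 0.443, 7.43% ± 0.580, 6.29% ± 0.0921 and 6.67% ± 0.357 (n = 3 each) and 7.13% ± 0.329 (n = 2). The highest library at 0 dpa, replicate 1, is among the 4 with high fosb, and the highest at 3 dpa, replicate 3, had the lowest fosb of all, 23.0 TPM. For median-of-ratios scaling, each share was divided by the factor of its library, which gives a scaled level that is no longer a share of TPM. Its means were 8.23 at 0 dpa, 7.02 at 3 dpa, 6.02 at 7 dpa, 6.46 at 10 dpa and 6.48 at 14 dpa. On that scale every 0 dpa library (7.85 to 8.49) lay above every 3 dpa library (6.57 to 7.65). The 7 dpa libraries (5.67 to 6.32) overlapped with those of 14 dpa (6.14 to 6.82). No test was made on the sum.

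The 2 subunits kept in step. The summed TPM of the large subunit and stalk genes over that of the small subunit genes was between 1.44 and 1.51 in all 14 libraries, with means by time of 1.48, 1.47, 1.48, 1.48 and 1.49. This ratio does not change when a library is scaled by a single factor, though quantile normalization can change it.

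**Figure D1:**
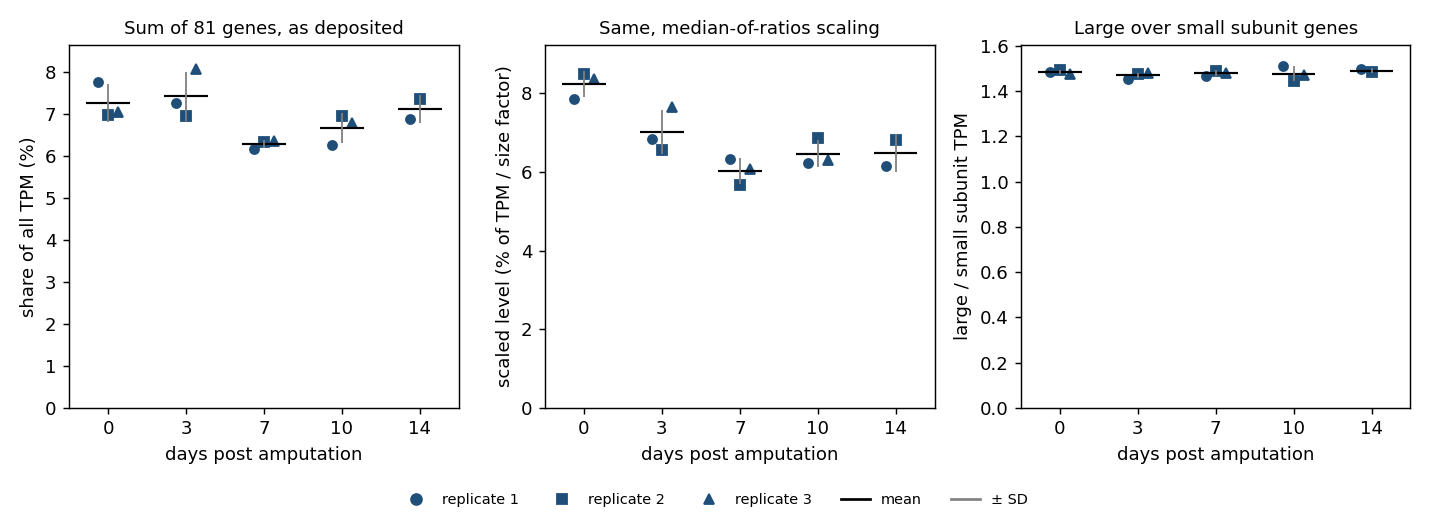
Sum of the 81 ribosomal protein genes by days post amputation, as a share of all TPM (%, left), as that share divided by the median-of-ratios factor of the library (middle), and as the ratio of large to small subunit genes (right). Points are libraries, black lines means and grey lines ± SD. The 3 libraries at 7 dpa lie between 6.18% and 6.35% as deposited, below all libraries at 0, 3 and 14 dpa, and the ratio on the right stays between 1.44 and 1.51.

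Single genes varied little and varied together. The median SD within a time was 0.0909 on the log2 scale for the 81 genes, against 0.275 for all genes tested and 0.199 for the 1567 other genes of at least 100 TPM, and 76 of the 81 had an SD under 0.15. By library, the genes above the mean of their time numbered from 2 (10 dpa replicate 1) to 80 (0 dpa replicate 1) of 81. One component held 59.3% of the members' variance within times. The genes were not set to equal variance for it, so the more variable ones counted for more. It therefore does not measure how far all 81 shared the deviation of a library. That share was not computed for other genes, so it is not known to be particular to the family. The highest library was 0 dpa replicate 1 for 36 genes and 3 dpa replicate 3 for 38, and the lowest was at 7 dpa for 56 genes and was 10 dpa replicate 1 for 18. In 76 genes the highest library was 1.25 to 1.81 times the lowest, with a median of 1.35. The 5 others were rps27l with 2.83, rps8b with 2.63, rpl7l1 with 2.58, rplp2 with 1.96 and rpl22l1 with 1.94, so 4 of the 5 were among the low paralogs and rplp2, a stalk gene, was the other.

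At 3 dpa, when the markers of fibroblasts and bone-forming cells were highest, few ribosomal protein genes differed from 0 dpa. As deposited, 5 of the 81 were higher (limma, adjusted p under 0.05), namely rpl22l1, rps20, rplp1, rpl39 and rps27l, where 35% of all genes tested were higher. Only rplp2, rpl22, rps21 and rpl5b were lower, 4 of 81, where 19.6% of all genes tested were lower. The median change of the 81 genes was 0.01, against 0.24 over all genes, and 75 of the 81 lay below the median of all genes. Libraries of both times did not overlap for 8 genes in the direction of a rise and for 8 in that of a fall, against 39.2% and 22.7% of all genes. The count of higher genes was 3 without replicate 2 or 3 of 0 dpa or replicate 3 of 3 dpa. The count of lower genes was 1 without replicate 1 of 0 dpa or replicate 2 of 3 dpa, and 2 without replicate 3 of 0 dpa or replicate 1 of 3 dpa. Over all genes, 3145 to 3432 were higher and 1944 to 2067 lower in the respective fits. Without the 4 libraries with high fosb, 7 were higher, with rpl12 and rpl23a added, and 1, rplp2, was lower. Over all genes tested, 4780 were higher and 2342 lower in that fit.

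These counts depended on the scaling. With median-of-ratios scaling, which sets the median gene to about 0 change (0.02), 1 of the 81 was higher and 38 were lower, and the median of the 81 was -0.26. With quantile normalization 30 were higher and 2 lower, and their median was 0.20 against 0.03 for all genes. When libraries were instead scaled to the same total of the 81 genes, 6 were higher and 7 lower, including all 9 that were called as deposited. For all genes tested, 3945 were higher and 2214 lower as deposited, whereas median-of-ratios scaling gave 2933 and 3009. Quantile normalization gave 2913 and 2819, and the same total of the 81 genes gave 3775 and 2245. The direction of the median of the family at 3 dpa thus changed with the scaling.

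The clearest rise was in rpl22l1, the paralog of the large subunit gene rpl22. Its level was 140, 135 and 128 TPM at 0 dpa and 227, 200 and 214 TPM at 3 dpa. At 7 dpa it was 148, 131 and 145 TPM, at 10 dpa 132, 139 and 117 TPM, and at 14 dpa 150 and 158 TPM. All 3 dpa libraries lay above all others, the 7 and 10 dpa libraries overlapped with 0 dpa, and the 14 dpa libraries lay just above the 0 dpa range. The log2 change was 0.66 ± 0.10 at 3 dpa (limma, adjusted p = 0.000133) and -0.47 ± 0.11 from 3 to 14 dpa (adjusted p = 0.00616). The rise at 3 dpa passed the threshold in 27 of 27 alternative analyses, at 0.40 to 0.72. The lower level at 14 than at 3 dpa passed in 26 and was missed without 14 dpa replicate 1 (adjusted p = 0.0603; over the alternatives 0.000601 to 0.0603).

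Its partner rpl22 encodes a large subunit protein that is dispensable for general translation in mice, where loss of it raises Rpl22l1. Its level was 396, 323 and 352 TPM at 0 dpa and 298, 291 and 301 TPM at 3 dpa, with no overlap. The fall of 0.26 ± 0.10 (adjusted p = 0.0416) was lost in 13 of the 27 alternatives, among them the fit without 0 dpa replicate 1, the highest library, those without 0 dpa replicate 3, 10 dpa replicate 3 or any library of 3 or 14 dpa, and the fit without the 4 libraries with high fosb. At 7 dpa it was at 261, 280 and 300 TPM and lower than at 0 dpa by 0.35 ± 0.10 on the log2 scale (log2 change -0.35, adjusted p = 0.0196).

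The clearest fall was in rplp2, which encodes an acidic stalk protein that helps to recruit the elongation factors. Its level was 272, 236 and 232 TPM at 0 dpa and 139, 146 and 139 TPM at 3 dpa. It was 166, 178 and 178 TPM at 7 dpa, 179, 222 and 235 TPM at 10 dpa, and 182 and 189 TPM at 14 dpa. The 3 dpa libraries were the lowest of all, the 7 dpa libraries lay between them and 0 dpa, and at 10 dpa the ranges of 0 and 10 dpa overlapped. The log2 change was -0.80 ± 0.11 at 3 dpa (limma, adjusted p = 7.87e-05) and -0.50 ± 0.11 at 7 dpa (adjusted p = 0.00537), and both passed in 27 of 27 alternatives. All alternatives use the same division of reads between rplp2 and its paralog rplp2l, which was not tested. At 14 dpa it was -0.41 (adjusted p = 0.0560), just above the threshold. From 3 to 14 dpa rplp2 rose by 0.39 ± 0.13 (adjusted p = 0.0306), which was lost in 7 alternatives, among them every fit that left out a library of 3 or 14 dpa (adjusted p over the alternatives 0.00264 to 0.232).

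The other stalk genes did not follow rplp2. The partner protein gene rplp1 stood at 924, 845 and 853 TPM at 0 dpa and at 1059, 1121 and 1184 TPM at 3 dpa, with no overlap. It rose by 0.36 ± 0.08 at 3 dpa (limma, adjusted p = 0.00318) and was back at 849, 903 and 910 TPM at 7 dpa. At 14 dpa it was at 1003 and 1084 TPM, above every 0 dpa library, but the change of 0.25 did not pass (adjusted p = 0.0956). The second P2 gene, rplp2l, had 605, 501 and 495 TPM at 0 dpa and 534, 561 and 603 TPM at 3 dpa, overlapping ranges with a change of 0.09 ± 0.09 (adjusted p = 0.447). The stalk base rplp0 had 3002, 2825 and 2611 TPM at 0 dpa, 2876, 3070 and 3688 TPM at 3 dpa and 2287, 2470 and 2374 TPM at 7 dpa, and neither change passed (0.19, adjusted p = 0.146, and -0.24, adjusted p = 0.0949). All 4 stalk genes passed the F test across times.

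Of the small subunit genes, rps20, a protein of the head of that subunit, rose at 3 dpa. Its level was 724, 669 and 637 TPM at 0 dpa and 859, 874 and 993 TPM at 3 dpa, with no overlap. At 7 dpa it was at 570, 587 and 610 TPM, below every 0 dpa library, a change of -0.20 that did not pass (adjusted p = 0.160). The log2 change at 3 dpa was 0.42 ± 0.10 (limma, adjusted p = 0.00381) and that from 3 to 14 dpa -0.43 ± 0.11 (adjusted p = 0.0106). The rises of rps20 and rplp1 at 3 dpa were each missed in 1 of 27 alternatives, median-of-ratios scaling, where they were 0.16 (adjusted p = 0.250) and 0.10 (adjusted p = 0.406). The change of rps20 from 3 to 14 dpa was missed only without 14 dpa replicate 1 (-0.34, adjusted p = 0.120).

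The other calls at 3 dpa were smaller or rested on fewer libraries. The exit tunnel protein gene rpl39 had 671, 574 and 590 TPM at 0 dpa and 696, 700 and 824 TPM at 3 dpa, a rise of 0.27 (adjusted p = 0.0384) that was lost in 7 of 27 alternatives, including those without 0 dpa replicate 2 or 3 or without 3 dpa replicate 3. The paralog rps27l, a p53 target in humans, had 24.5, 11.02 and 12.2 TPM at 0 dpa and 27.8, 20.5 and 31.2 TPM at 3 dpa. Its ranges overlapped through 0 dpa replicate 1, and the change of 0.77 ± 0.30 (adjusted p = 0.0468) was lost in 14 alternatives, 9 of which left out 1 library (replicate 2 or 3 of 0 dpa, replicate 1 or 3 of 3 or 7 dpa, replicate 3 of 10 dpa, or either of 14 dpa). Without the 4 libraries with high fosb it was 1.11 (adjusted p = 0.000637), and over all alternatives the adjusted p ran from 0.000586 to 0.180.

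Among the falls, rps21 of the small subunit was at 455, 393 and 433 TPM at 0 dpa and at 354, 342 and 375 TPM at 3 dpa (-0.26, adjusted p = 0.0376). The 5S rRNA binding protein gene rpl5b had 1110, 999 and 1023 TPM at 0 dpa and 884, 834 and 948 TPM at 3 dpa (-0.23, adjusted p = 0.0367). Their libraries did not overlap, yet each fall was lost in 9 of 27 alternatives, including the fits without replicate 1 or 3 of 0 dpa, without replicate 1 or 2 of 3 dpa, or without all 4 libraries with high fosb.

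**Figure D2:**
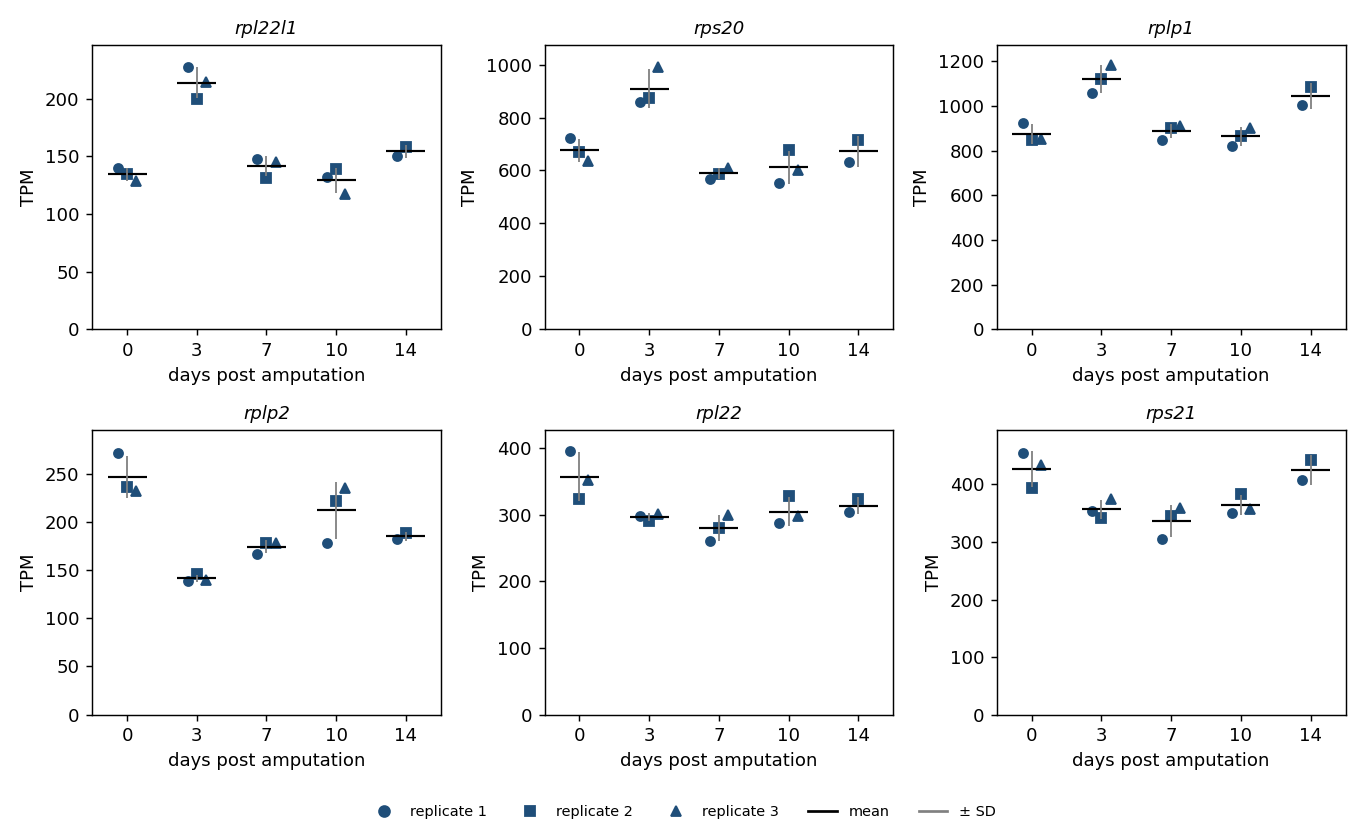
TPM of 6 ribosomal protein genes by days post amputation; points are libraries, black lines means and grey lines ± SD. At 3 dpa rpl22l1 (200 to 227 TPM), rps20 (859 to 993 TPM) and rplp1 (1059 to 1184 TPM) lie above their 0 dpa libraries, and rplp2 (139 to 146 TPM) lies below all of its other libraries.

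At 7 dpa the picture was of a small and shared shift. As deposited, 22 of the 81 genes were lower than at 0 dpa (limma), where 9.07% of all genes tested were lower, and none was higher, where 21.5% of all genes were higher. At an unadjusted p under 0.05, 48 were lower and 0 higher, but the share of all genes at that threshold was not computed. The libraries did not overlap, with 7 dpa lower, for 72 genes (88.9%), against 12.5% of all genes, and for 0 genes with 7 dpa higher, against 26.8%. In all, 78 of the 81 changes were below 0. The 9 genes whose ranges overlapped were rpl10a, rpl18, rpl22l1, rpl27a, rpl7l1, rplp1, rps2, rps27l and rps8b. The median change of the 81 genes was -0.22 and that of all genes 0.19, and all 81 lay below the latter. The genes tended to move together within a library, so these counts are not independent observations of the shift.

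The 22 genes belonged to both subunits, 16 to the large subunit with its stalk and 6 to the small. After rplp2 the largest falls were in rpl22 (-0.35), rpl30 (-0.35 ± 0.10, adjusted p = 0.0155), rps21 (-0.34) and rpl36 (-0.34). For rpl30, the libraries had 824, 750 and 690 TPM at 0 dpa and 570, 569 and 639 TPM at 7 dpa. Also lower were rpl11, which with rpl5 and 5S rRNA forms the particle that binds the p53 regulator Mdm2 in mammals (-0.32, adjusted p = 0.0231), and rpl23 (-0.33, adjusted p = 0.0130). For rpl11, 0 dpa libraries had 889, 745 and 791 TPM and 7 dpa libraries 630, 631 and 678 TPM, with no overlap. Of the other 5S particle genes, rpl5b passed (-0.27, adjusted p = 0.0316) and rpl5a did not (-0.18, adjusted p = 0.112).

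From the small subunit, rps15, which contacts tRNA near the decoding site, had 940, 890 and 918 TPM at 0 dpa and 721, 735 and 790 TPM at 7 dpa (-0.29, adjusted p = 0.0204). The decoding centre gene rps23 had 710, 620 and 667 TPM and then 536, 535 and 548 TPM (-0.30, adjusted p = 0.0202). Both sets of libraries stood clear of each other. The genes rps14, lost in one copy in human 5q- syndrome, rps25 and rps27.1 were lower by 0.27 to 0.32 (log2 changes -0.27, -0.32 and -0.30). The remaining calls, rpl6, rpl14, rpl21, rpl24, rpl27, rpl32, rpl35, rpl36a and rpl37, lay between -0.32 and -0.27.

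Several genes with well known roles did not pass at 7 dpa although their libraries did not overlap with 0 dpa. The gene rps6, whose protein is phosphorylated downstream of mTOR, had 1614, 1504 and 1502 TPM at 0 dpa and 1321, 1346 and 1338 TPM at 7 dpa (-0.21, adjusted p = 0.104). The gene rps19, mutated in Diamond-Blackfan anaemia, changed by -0.17 (adjusted p = 0.310). The gene rpl38, which mouse embryos need to translate a set of Hox mRNAs, had 248, 194 and 206 TPM and then 168, 159 and 173 TPM (-0.37 ± 0.14, adjusted p = 0.0569). The ubiquitin fusion gene rps27a was at -0.27 (adjusted p = 0.0667), and rpl3 at -0.08 (adjusted p = 0.496).

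The count at 7 dpa depended on single libraries, on scaling and on the model. It was 1 (rplp2) when only the libraries of 0 and 7 dpa were fitted, 6 without the variance trend and 35 with library weights. Over all genes, 627, 957 and 1571 were lower in these fits, against 1022 as deposited. The median change of the 81 genes was below 0 in all 27 alternatives, at -0.47 to -0.02, the latter where the total of these genes is held equal. Of the 0 dpa libraries, leaving out replicate 1 gave 6 lower genes and leaving out replicate 3 gave 8, with 848 and 835 over all genes. Leaving out a 7 dpa library gave 3, 10 and 12 for replicates 1, 2 and 3, with 760, 1034 and 796 over all genes. Without the 4 libraries with high fosb it was 1 (rplp2), with 1083 lower over all genes, while the median of the 81 genes was -0.18 against -0.22. With median-of-ratios scaling 74 were lower (median -0.47), and with quantile normalization 2, rplp2 and rps8b (median -0.09, and -0.06 over all genes). Over all genes tested, 1908 and 1697 were lower under these 2 scalings. Scaled to the same total of the 81 genes, rplp2 alone was lower and rplp1 alone higher, against 635 lower and 3793 higher over all genes. In some fits, such as that without 7 dpa replicate 1, the share of the 81 called lower was below that of all 11272 genes. Of the 22 genes, rplp2 alone was thus called lower under every alternative, and rpl23 and rpl36 came next with 23 of 27.

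**Figure D3:**
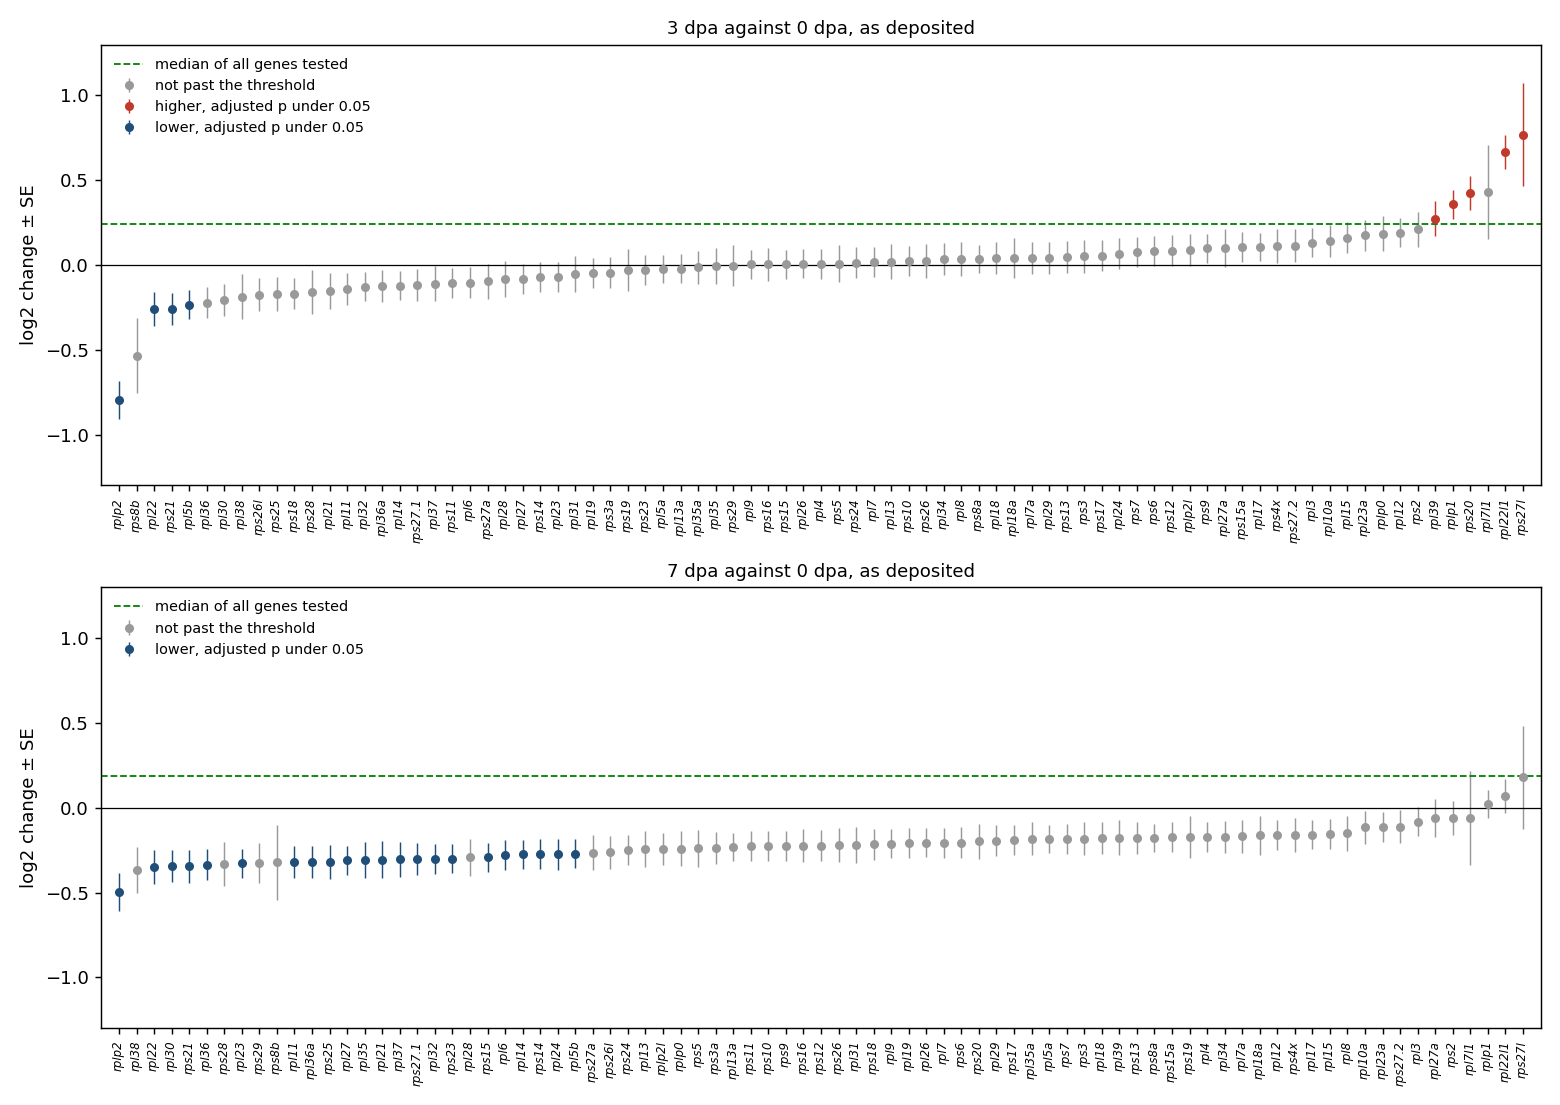
Log2 change ± standard error of the 81 genes at 3 dpa (upper) and 7 dpa (lower) against 0 dpa, as deposited, ordered by size; red and blue mark genes with adjusted p under 0.05 (limma) and the dashed line is the median of all genes tested. At 3 dpa the genes spread around 0.01 with rplp2 at -0.80 and rps27l at 0.77 at the ends, and at 7 dpa all 81 lie below the dashed line at 0.19.

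At 10 dpa none of the 81 was called in either direction (limma), where 14% of all genes tested were higher and 2.73% lower. At an unadjusted p under 0.05, 0 were higher and 11 lower, a threshold for which no share of all genes was computed. The median change was -0.13, and 26 genes had 10 dpa libraries below all 0 dpa libraries, against 7.94% of all genes, and 0 had them above, against 21.9%. The lowest adjusted p at 10 dpa belonged to rpl36a, with -0.28 (adjusted p = 0.0640), and the largest fall to rps28, with -0.37 ± 0.13 (adjusted p = 0.0762). For rps28 the 10 dpa libraries were at 258, 368 and 360 TPM, against 467, 384 and 411 TPM at 0 dpa, so replicate 1 was the lowest and the others lay below the 0 dpa range too. Without the 4 libraries with high fosb, which leaves replicate 1 alone at 10 dpa, the median of the 81 genes was -0.19. It was -0.18 at 7 dpa in the same fit. Replicate 1 had the lowest sum of the 81 genes at 10 dpa, 6.27% against 6.96% and 6.79%, so this median depends on which library was kept. The lone library is then assumed to vary like the other times.

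At 14 dpa none of the 81 was called against 0 dpa, where 10.1% of all genes were higher and 1.08% lower. At an unadjusted p under 0.05, 1 was higher (rplp1) and 1 lower (rplp2), again without a computed share of all genes. The median change was -0.04, against 0.30 for all genes. Libraries of 0 and 14 dpa did not overlap for 3 genes in the direction of a rise (rpl22l1, rpl7l1 and rplp1; 41.3% of all genes) and for 11 in that of a fall (5.85% of all genes). Against 3 dpa, 1 gene was higher at 14 dpa (rplp2; 19.8% of all genes) and 2 were lower (rpl22l1 and rps20; 14.3% of all genes). The ranges of 3 and 14 dpa did not overlap for 3 genes with 14 dpa higher (rpl22, rplp2 and rps21; 34.9% of all genes) and for 13 with 14 dpa lower (28.2% of all genes). With median-of-ratios scaling, by contrast, 58 of the 81 were lower at 10 dpa and 13 at 14 dpa, with medians of -0.35 at both times. Of all genes tested, 857 and 256 were lower at these times on that scale. With quantile normalization 0 were lower at 10 dpa and 1 (rplp2) at 14 dpa, and from 3 to 14 dpa 20 were lower. Over all genes tested these counts with quantile normalization were 674, 160 and 1996.

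The F test asked which genes changed at any time against 0 dpa. It called 13 of the 81 (16%), where 47.6% of all genes tested passed. The count was 10 without the 4 libraries with high fosb. It was 6 without replicate 1 of 3 dpa or of 7 dpa, and 7 or 8 without replicate 3 of 0, 3 or 10 dpa, replicate 2 of 3 or 7 dpa, or either library of 14 dpa. The share of all genes was not computed for these fits. The 13 genes called as deposited included rplp0, rplp1, rplp2 and rplp2l of the stalk and rpl12, which binds the stalk base together with rplp0. The others were rpl22l1, rpl23, rpl24 and rpl39 of the large subunit and rps15, rps20, rps21 and rps23 of the small. The lowest adjusted p were those of rpl22l1 (0.000424) and rplp2 (0.000852). The gene rpl12 had 1033, 934 and 903 TPM at 0 dpa, 1090, 1049 and 1135 TPM at 3 dpa and 832, 880 and 850 TPM at 7 dpa. Both steps left the libraries without overlap, but in opposite directions from 0 dpa, and neither alone passed (0.19, adjusted p = 0.0809, and -0.16, adjusted p = 0.178).

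**Figure D4:**
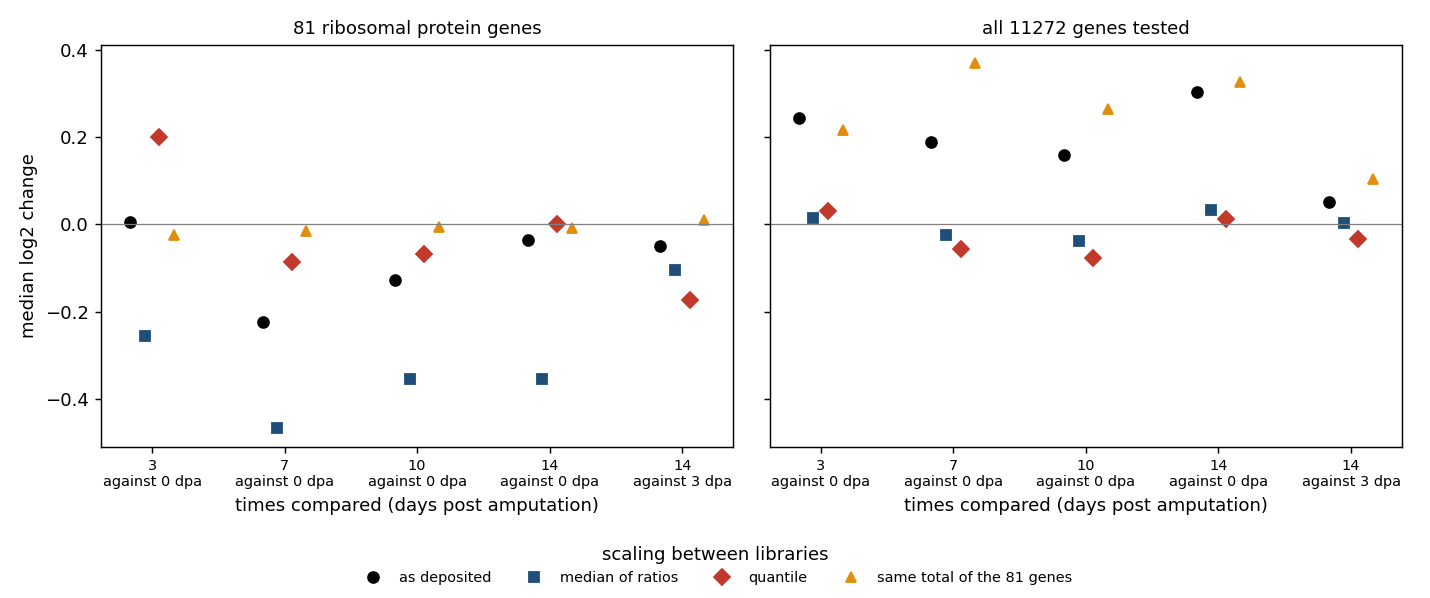
Median log2 change of the 81 ribosomal protein genes (left) and of all 11272 genes tested (right) for 5 comparisons of times under 4 ways of scaling the libraries. At 3 dpa the median of the 81 genes is 0.01 as deposited, -0.26 with median-of-ratios scaling and 0.20 with quantile normalization, and it is within 0.03 of 0 in every comparison when libraries share the same total of these genes.

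Ratios of paralogs compare genes within a library. Plain ratios of TPM do not change when a library is scaled by a single factor, though quantile normalization can change them. The test used log2(TPM + 1) of both genes. For low genes such as rps8b, the tested ratio therefore depends somewhat on scaling and its differences are understated. In 8 pairs, the ratio was compared between the 11 regrowth libraries and the 3 at 0 dpa by a two-sided exact permutation test, for which the smallest possible p is 0.00275. After adjustment over the 8 pairs none passed 0.05, and 4 did before adjustment. The test pools the 4 regrowth times, so a ratio that peaks at 3 dpa also widens the permuted differences. It cannot decide whether a ratio differed at 3 dpa alone, which was not tested. For rpl22l1 over rpl22 the ratio was 0.353, 0.418 and 0.365 at 0 dpa and 0.762, 0.688 and 0.712 at 3 dpa. At 7 dpa it was 0.567, 0.469 and 0.484, at 10 dpa 0.459, 0.422 and 0.392, and at 14 dpa 0.493 and 0.490. It was above every 0 dpa library in 10 of 11 regrowth libraries, with a mean log2 difference of 0.48 (exact permutation p = 0.0247, adjusted p = 0.0659). As a share of the pair, rpl22l1 was 27.4% ± 1.79 at 0 dpa and 41.9% ± 1.26 at 3 dpa (SD, n = 3 each).

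For the P2 genes the ratio was highest at 3 dpa. The ratio rplp2l over rplp2 was 2.23, 2.12 and 2.14 at 0 dpa and 3.85, 3.85 and 4.32 at 3 dpa, and it was 2.68, 2.49 and 2.57 at 7 dpa. At 10 dpa it was 2.53, 2.15 and 2.04, which is above, inside and below the range of 0 dpa, and at 14 dpa 2.86 and 2.81. Over all regrowth libraries the log2 difference was 0.39 (exact permutation p = 0.0797, adjusted p = 0.127). Of the 11 ratios, 1 lay below all 0 dpa libraries and 9 above. The share of rplp2l in the pair was 68.4% at 0 dpa and 80.0% at 3 dpa.

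The remaining pairs differed less or varied more. For rps27.2 over rps27.1, genes for the same zinc finger protein of the small subunit, the log2 difference was 0.15 (exact permutation p = 0.0220, adjusted p = 0.0659), with 9 of 11 regrowth libraries above all 0 dpa libraries. For rpl5b over rpl5a it was -0.11 (exact permutation p = 0.0330, adjusted p = 0.0659), with 10 of 11 below; the ratio was 1.08, 1.12 and 1.08 at 0 dpa and 0.949, 0.932 and 0.955 at 3 dpa. For rps27l over rps27.1 it was 0.56 (exact permutation p = 0.0247, adjusted p = 0.0659), and 6 of 11 lay above. The pairs rps8b over rps8a (-0.26, adjusted p = 0.282), rps26l over rps26 (-0.07, adjusted p = 0.367) and rpl7l1 over rpl7 (0.20, adjusted p = 0.434, exact permutation tests) did not pass in either form. In the rpl7l1 pair the lowest ratios outside 0 dpa, 0.0253, 0.0336 and 0.0249, were those of 7 dpa replicate 2 and 10 dpa replicates 2 and 3, and 0 dpa replicate 1 had the lowest ratio of its time, 0.0272. These are the 4 libraries with high fosb, in which rpl7l1 was at 30.6, 46.7, 32.6 and 42.2 TPM in that order, against 53.8 to 79.0 TPM in the other 10.

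**Figure D5:**
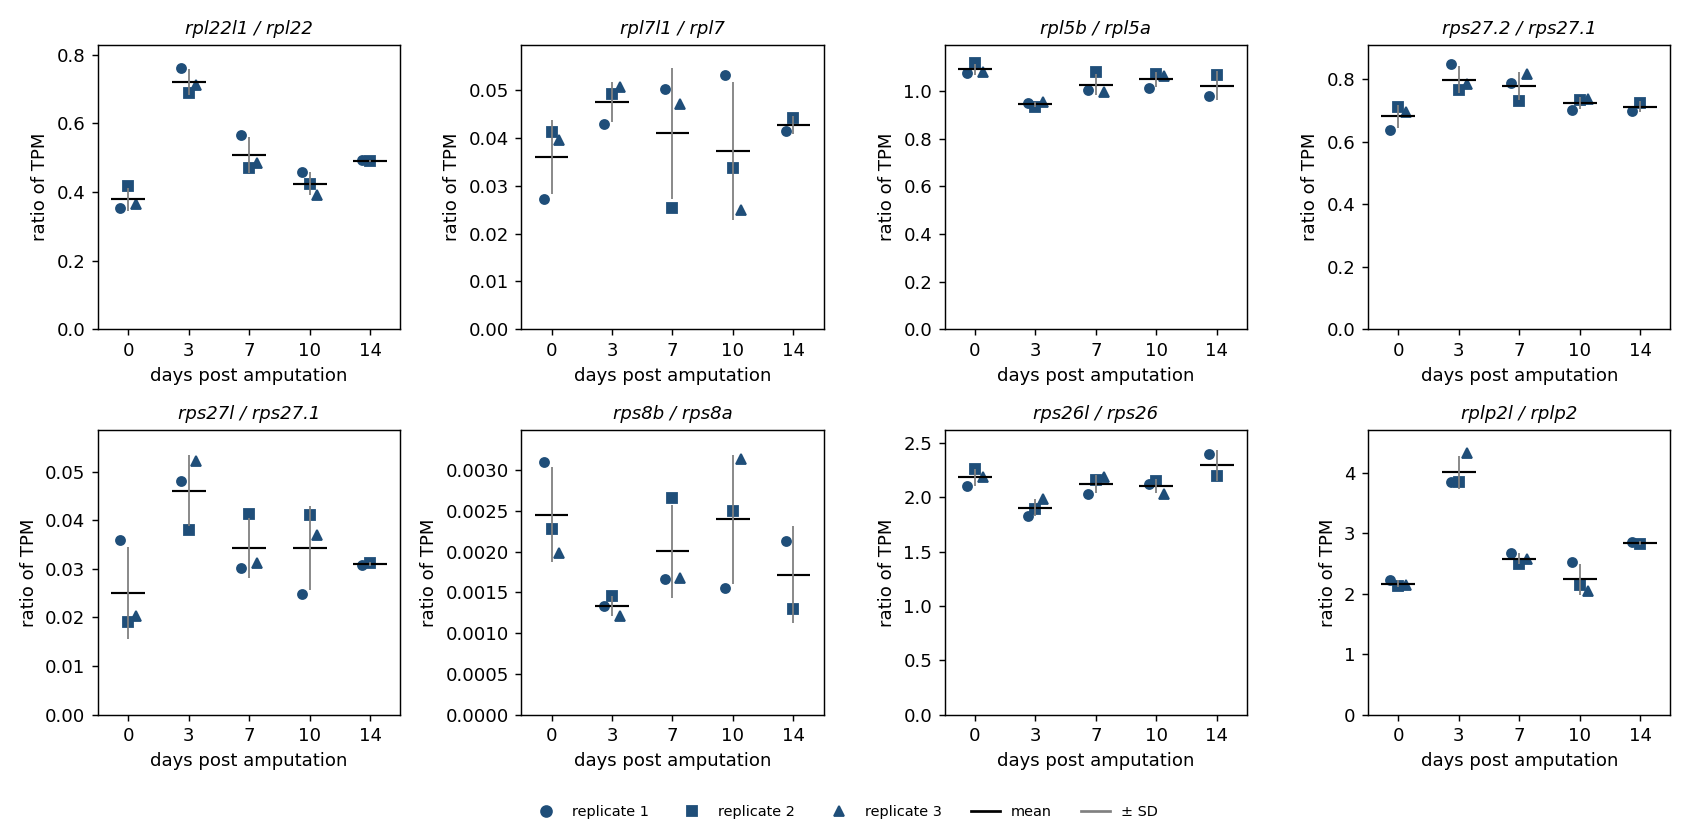
Ratio of TPM of the 8 paralog pairs by days post amputation, with the axis from 0; points are libraries, black lines means and grey lines ± SD. The ratio rpl22l1 / rpl22 is 0.353 to 0.418 at 0 dpa and 0.688 to 0.762 at 3 dpa, and rplp2l / rplp2 is 2.12 to 2.23 and 3.85 to 4.32.

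Genes around the cytosolic ribosome were read from the same fit. Over all genes tested, 35% were higher at 3 dpa and 19.6% lower, and the median change was 0.24. Of the mitochondrial ribosomal protein genes, 39 of 69 were higher at 3 dpa and 0 lower, with a median of 0.55, and mrpl40 (1.44 ± 0.20, adjusted p = 6.05e-05) and mrpl36 (1.11 ± 0.18, adjusted p = 0.000210) were among the largest rises. The count of higher genes at 3 dpa was 21 with median-of-ratios scaling and 12 with quantile normalization. Of all 11272 genes, 2933 and 2913 were higher on these scales. The share of the 69 genes was thus near that of all genes with median-of-ratios scaling and below it with quantile normalization. At 7 dpa 4 were higher as deposited, where 21.5% of all genes were higher. Whether the 2 kinds of ribosomal protein gene differed was not tested.

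Other mRNAs that carry a TOP tract in mammals were called in both directions at 3 dpa, 6 of 22 higher and 5 lower, which is near the shares over all genes of 35% and 19.6% (median-of-ratios scaling gave 2 and 10). Among them pabpc1b, a poly(A) binding protein, rose by 1.37, eif4ba, an initiation factor, rose by 1.01, eef1db, an elongation factor subunit, fell by 0.85, and eef1a1l2 fell by 0.95 (limma, adjusted p = 7.24e-07, 0.00674, 1.67e-05 and 0.00177). In the mTOR list 7 of 20 were higher and 4 lower (quantile normalization gave 4 and 7, and median-of-ratios scaling 5 and 7), again near the shares over all genes, with ddit4, an inhibitor of mTOR complex 1, at -2.15 and sesn1 at -1.43, and with eif4ebp1, a translation repressor that mTOR inactivates, at 0.995. Of 6 Myc genes 2 were higher and 1 lower, also near those shares: myca rose by 2.88 and mycla by 1.15, and mych fell by 0.74, and with quantile normalization 1 was higher. Of 13 chaperones and assembly factors 1 was higher (heatr3, 0.53), against 35% of all genes, and 3 were lower (sbds, -0.88, rpf2, -0.56, and pno1, -0.29), against 19.6%, and 0 were higher with median-of-ratios scaling or quantile normalization. Of all genes, median-of-ratios scaling gave 2933 higher and 3009 lower at 3 dpa, and quantile normalization 2913 and 2819.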

How the data were processed

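RNA of the fin tip was sequenced in 14 libraries from pools of fish. The authors deposited TPM per gene; the submitters' processing notes name the danRer11 build, Salmon 1.4.0, cutadapt 3.5 and Trim Galore 0.6.7. Summing of transcripts to genes was not described in the labels. Because TPM holds no depth, no counting interval is given. The filter was 1 TPM or more in 2 or more libraries. With limma 3.58.1 (R 4.3.3), log2(TPM + 1) was modelled with a mean for each time, a variance trend and two-sided contrasts, plus a moderated F test of the 4 regrowth times against 0 dpa. P-values were adjusted by Benjamini-Hochberg over the 11272 genes that passed, with 0.05 as the threshold. Paralog ratios were tested by exact permutation over libraries (364 splits), adjusted over 8 pairs. The model was tested on simulated data. Of the 81 symbols, 80 are in the RefSeq gene table of GRCz12tu, where rplp2l is a synonym; its coordinates are not used.

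The members, lists, pairs and alternatives were chosen with earlier results of these data known. Any gene of the family could be named. Of the related lists, up to 4 genes past the threshold with the largest change at 3 dpa could be named, and a list of 4 or fewer genes is not reported here. Scaling to the same total of the members, and recomputing the sum and the related lists under each setting, were added after seeing the data.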

Additional observations from a re-analysis of the deposited data

How the results depend on the processing

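Of the single-gene calls, those of rpl22l1 and rplp2 at 3 dpa and of rplp2 at 7 dpa passed under all 27 alternatives. All alternatives use the deposited division of reads between paralogs. Median-of-ratios scaling lowered the family as a whole at 3 dpa, and genes with a change above 0 went from 45 to 6. The gene rpl4, at 0.01 as deposited, was called lower on that scale (-0.26, adjusted p = 0.0492). Counts of the 81 genes below are for limma and name higher or lower genes. Those changed at any time are from the F test, for which the share of all genes was computed only as deposited (47.6%).

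With median-of-ratios scaling, 3 dpa had 1 higher and 38 lower. On that scale 74 were lower at 7 dpa, 58 at 10 dpa and 13 at 14 dpa, and 69 changed at any time. Of all genes tested, 3009 were lower at 3 dpa, 1908 at 7 dpa, 857 at 10 dpa and 256 at 14 dpa. The scaled level of the sum, which is not a share of TPM, was 8.23 at 0 dpa, 6.02 at 7 dpa and 6.48 at 14 dpa. With quantile normalization, 30 were higher and 2 lower at 3 dpa, 2 lower at 7 dpa and 1 lower at 14 dpa. From 3 to 14 dpa 0 were higher and 20 lower, and 32 changed at any time. Over all genes tested, 2913 were higher and 2819 lower at 3 dpa, 1697 lower at 7 dpa and 160 at 14 dpa. From 3 to 14 dpa 1997 of all genes were higher and 1996 lower. With the same total of the 81 genes, 7 were lower at 3 dpa, and 1 was higher and 1 lower at 7 dpa and again at 14 dpa. From 3 to 14 dpa 2 were higher, and 6 changed at any time. Of all genes, 2245 were lower at 3 dpa on that scale, and 3793 were higher and 635 lower at 7 dpa. At 14 dpa 1298 of all genes were higher and 110 lower, and 2389 were higher from 3 to 14 dpa. Without the variance trend, 1 was lower at 3 dpa and 6 at 7 dpa, 0 were higher from 3 to 14 dpa, and 4 changed at any time. Of all genes, 2177 were lower at 3 dpa and 957 at 7 dpa in that fit, and 2184 were higher from 3 to 14 dpa. With library weights, 9 were higher and 9 lower at 3 dpa, 35 lower at 7 dpa, and 1 higher and 1 lower at 10 dpa and at 14 dpa. From 3 to 14 dpa 3 were higher, and 39 changed at any time. Over all genes tested, these weights gave 5342 higher and 2656 lower at 3 dpa and 1571 lower at 7 dpa. They gave 4785 higher and 1648 lower at 10 dpa, 4550 higher and 435 lower at 14 dpa, and 3082 higher from 3 to 14 dpa. With no filter, 3 were lower at 10 dpa, 1 at 14 dpa, and 24 changed at any time. Of the 14836 genes then tested, 342 were lower at 10 dpa and 119 at 14 dpa. With a mean of at least 5 TPM, 1 was lower at 14 dpa, and 119 of all genes in that fit were. With only the libraries of the times compared, 3 were higher and 1 lower at 3 dpa, and 1 lower at 7 dpa. Of all genes, these fits gave 3812 higher and 2199 lower at 3 dpa, and 627 lower at 7 dpa. Without the 4 libraries with high fosb, 1 was lower at 3 dpa, 1 at 7 dpa, 1 at 14 dpa and 4 from 3 to 14 dpa. Of all genes, 2342, 1083, 291 and 2182 were lower in these comparisons. The sum at 10 dpa was 6.27%, from the 1 library left. The cause of these differences was not tested.

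Replicate numbers did not pair the libraries: deviations of same-numbered libraries correlated above 0.1 in 10 of 26 pairs (-0.772 to 0.571). With the replicate block, 3 were higher and 1 lower at 3 dpa, 12 lower at 7 dpa, and 7 changed at any time. Of all genes, 3778 were higher and 2138 lower at 3 dpa with the block, and 902 lower at 7 dpa.

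Leaving out 1 library at a time, 3 dpa had 3 to 7 higher and 1 to 5 lower, 7 dpa had 3 to 29 lower, 14 dpa had 0 to 1 lower, and from 3 to 14 dpa 0 to 1 were higher and 0 to 2 lower, while 6 to 12 changed at any time. Of all genes, these fits gave 3145 to 4219 higher and 1944 to 2312 lower at 3 dpa, and 760 to 1085 lower at 7 dpa. At 10 dpa 0 of the 81 were called in every such fit, and 0 of the 8 paralog pairs passed. The sum ran from 7.02% to 7.42% at 0 dpa, 7.11% to 7.67% at 3 dpa, 6.26% to 6.34% at 7 dpa, 6.53% to 6.87% at 10 dpa and 6.89% to 7.36% at 14 dpa. The limits are pools of 2 or 3 per time, unknown depth, and values that are shares of a total.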
